A study of Rattus norvegicus with 8 samples.

Results

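Cell cycle and DNA replication genes were followed in vessels of control and hypertensive rats. The set was given by name and holds 35 genes, from cyclins and their kinases to replication factors and spindle proteins. A probe on the array was named for 33 of them, and 30 entered the test, among 24553 genes or unnamed probes tested in all and 11961 named genes. Top2a and Mcm5 had no probe that could be named. Bub1b, Cenpf and Aurkb had only probes below the filter on dim signal. All 30 tested members were well above background on all 8 arrays, so that none entered the test through 1 group alone.

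Each group has 4 arrays of vessel RNA, all from males and numbered as replicates. Wistar-Kyoto, a strain with normal blood pressure, is the strain given for the controls. The hypertensive animals are labelled as a disease model with hypertensive disease, and their strain entry also reads Wistar-Kyoto, so their strain is not settled here. The vessel taken, the age of the animals and the cause of the hypertension are not given in the sources used here. No treatment is named for either group. Levels are log2 signal relative to the 75th percentile of each array, and changes are hypertensive minus control, with the standard error (SE) of the limma fit after ±. A gene was called where its limma p, adjusted by Benjamini-Hochberg over all 24553 tests, was under 0.05.

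Cells enter the cycle through G1, when cyclin D and then cyclin E switch on kinases that release E2F transcription factors. E2F targets load the MCM helicase on replication origins, supply nucleotides and clamp the polymerase to DNA with PCNA. A later wave of genes, read through the CHR and CCAAT promoter elements, builds the spindle and drives mitosis until the anaphase-promoting complex destroys the mitotic cyclins. Adult vessel muscle and endothelium divide rarely, and growth of the wall in hypertension is known to involve both larger and more numerous muscle cells.

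The promoter windows of the 4 members with the smallest limma p among those with an entry are shown. All 4 are replication genes whose levels did not overlap between the groups. Tpx2 had no entry. Each window spans 250 bases before to 50 bases after the gene's start, 5′ to 3′ on the gene's strand, from RefSeq on GRCr8, all on the minus strand. They lie at chr4:122918045-122918344 (Mcm2), chr13:42404303-42404602 (Mcm6), chr3:139955771-139956070 (Pcna) and chr12:22163129-22163428 (Mcm7). Capitals mark every match, on either strand. The letters searched for the CHR were TTTGAA. The box named CCAAT was searched by those letters. For E2F the letters were TTTGGCGC, TTTCGCGC and GGCGGGAA.
Mcm2: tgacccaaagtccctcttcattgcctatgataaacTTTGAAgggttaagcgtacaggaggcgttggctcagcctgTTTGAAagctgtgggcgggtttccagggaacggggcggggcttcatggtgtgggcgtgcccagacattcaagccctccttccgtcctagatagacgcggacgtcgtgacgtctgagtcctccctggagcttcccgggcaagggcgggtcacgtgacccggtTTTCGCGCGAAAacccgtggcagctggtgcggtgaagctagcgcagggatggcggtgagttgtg
Mcm6: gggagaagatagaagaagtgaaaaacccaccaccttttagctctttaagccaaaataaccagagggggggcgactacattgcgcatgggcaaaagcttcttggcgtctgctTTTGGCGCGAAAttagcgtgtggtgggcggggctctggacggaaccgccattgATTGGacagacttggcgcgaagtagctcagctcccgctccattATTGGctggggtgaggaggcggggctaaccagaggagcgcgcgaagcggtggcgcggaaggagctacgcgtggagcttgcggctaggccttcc
Pcna: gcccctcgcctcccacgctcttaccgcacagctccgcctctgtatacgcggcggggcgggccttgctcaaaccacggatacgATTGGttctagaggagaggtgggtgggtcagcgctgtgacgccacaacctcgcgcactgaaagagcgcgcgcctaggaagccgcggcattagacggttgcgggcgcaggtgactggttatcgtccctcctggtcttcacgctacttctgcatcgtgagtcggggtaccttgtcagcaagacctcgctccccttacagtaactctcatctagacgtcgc
Mcm7: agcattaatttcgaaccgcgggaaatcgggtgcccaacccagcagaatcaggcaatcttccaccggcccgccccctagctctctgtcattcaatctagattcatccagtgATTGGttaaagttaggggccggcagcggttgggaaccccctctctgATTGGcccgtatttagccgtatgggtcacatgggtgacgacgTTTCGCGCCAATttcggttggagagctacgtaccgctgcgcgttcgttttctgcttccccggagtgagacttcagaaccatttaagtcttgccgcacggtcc
The Mcm2 window held TTTCGCGC on both strands, overlapping, between -14 and -3 from the start, and 2 CHR matches further upstream. Mcm6 held overlapping TTTGGCGC and TTTCGCGC matches between -139 and -128. In Mcm7, a TTTCGCGC match at -52 to -45 ran into a CCAAT box at -45 to -41. Pcna held 1 CCAAT box and none of these E2F letters. Of the 35 members, 26 had a window. An E2F motif was in 6 of 7 windows of replication and nucleotide supply genes and in 1 of 15 windows of mitosis genes, against 2.83% of 27457 rat promoters of the same length. A CHR match was in 1 of the 7 and 10 of the 15, against 18.1% of all promoters, and a CCAAT box in 5 of the 7 and 12 of the 15, against 37.7%. A match describes letters only.

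In hypertensive vessels few cell cycle genes passed the test. Of 30 tested members, 1 rose (Tpx2), 1 fell (Mcm2) and 28 did not pass the test. Over all tests 4.52% were called, 2.61% higher and 1.91% lower, and at an unadjusted limma p under 0.05 there were 6 members (2 higher, 4 lower), against 20.3% of all tests (12.2% higher, 8.02% lower). Levels of the groups did not overlap for 5 members (Mcm2, Mcm6 and Pcna lower, Mcm7 and Tpx2 higher), against 13.6% of all tests (5.78% lower, 7.84% higher). These shares are near the background. The median log2 change of the 30 members was 0.09, against 0.04 over all tests, with 11 members below 0, against 42.3% of all tests. Centring arrays on their median shifts every change by the same constant. It moved the 2 medians to 0.01 and -0.04, with 15 of 30 members below 0. Changes of members and of all tests moved together, so each count of signs holds for its own scaling only. Nothing in the labels says that replicates came from separate animals, so p-values measure only the spread between these arrays, which may be technical.

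**Figure D1:**
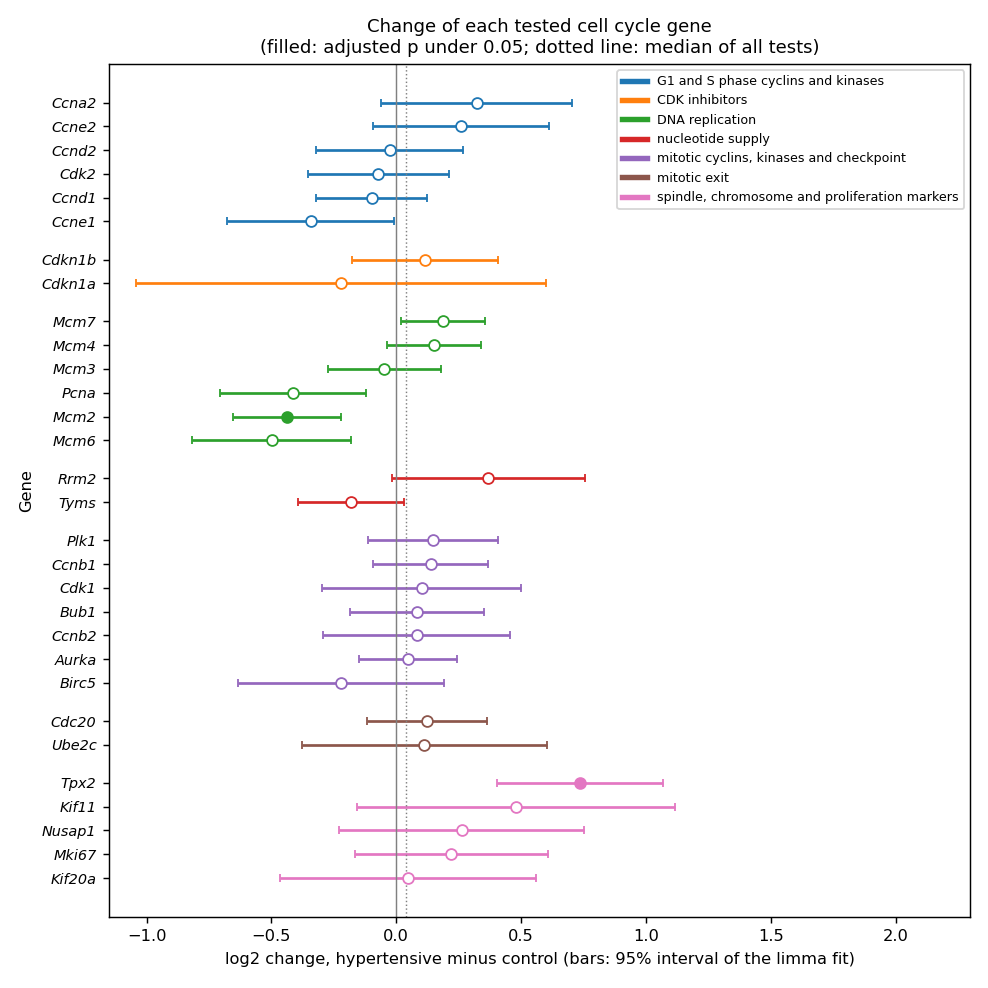
The log2 change (hypertensive minus control) is plotted on the horizontal axis for each of the 30 tested genes, grouped and coloured by role, with bars for its 95% interval (limma, n = 4 in each group). Only Mcm2 (-0.44) and Tpx2 (0.74), drawn filled, passed the threshold, and the dotted line marks the median of all tests (0.04).

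The MCM proteins form the ring-shaped helicase that opens DNA at origins. Of the 5 tested MCM genes, Mcm2 fell and the other 4 did not pass. Mcm2 was at 1.93, 2.26, 1.99 and 2.02 in control replicates 1 to 4 and at 1.54, 1.55, 1.64 and 1.71 in hypertensive replicates 1 to 4. Every hypertensive array lay below every control. The change was -0.44 ± 0.09 (1.36-fold lower, limma adjusted p = 0.038, 95% interval -0.65 to -0.22). A second Mcm2 probe fell by 0.61 on the log2 scale (SE 0.13, limma adjusted p = 0.033 over probes), from -0.75 to -1.36. Both probes read the same RNA, so they are no independent replicates. The call of Mcm2 held when hypertensive replicate 4 was left out and was lost with each of the other 7 left out in turn (adjusted p 0.059 to 0.100), while the change lay between -0.48 and -0.37. It was also lost without a filter on dim signal (adjusted p = 0.105).

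Mcm6 was at -1.55, -1.50, -1.96 and -1.87 in the controls and at -2.23, -1.97, -2.44 and -2.23 in the hypertensive rats. The groups touched without overlap, control replicate 3 and hypertensive replicate 2 being nearest. Its change was -0.50 ± 0.14 (limma adjusted p = 0.086), which did not pass. Mcm7, another subunit of the same ring, was at 1.83, 1.98, 1.97 and 1.89 in the controls and at 2.06, 2.13, 2.15 and 2.09 in the hypertensive rats. Here all 4 hypertensive arrays lay above all controls. The change of 0.19 ± 0.07 (limma adjusted p = 0.197) did not pass either. Mcm4 differed by 0.15 ± 0.08 and by the same amount on a second probe, with a further probe at -0.09 ± 0.19. Mcm3 differed by -0.05 ± 0.10, and its second probe, above background on 3 arrays of each group, by 0.31 ± 0.16. The 95% intervals of Mcm2 (-0.65 to -0.22) and Mcm6 (-0.82 to -0.18) lay below 0, and that of Mcm7 (0.02 to 0.35) above it. Whether the subunits differ from each other was not tested, since they were compared after their values were seen.

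Pcna encodes the sliding clamp that holds DNA polymerase on its template. It was at 2.23, 2.21, 2.62 and 2.11 in the controls and at 1.68, 1.89, 1.92 and 2.03 in the hypertensive rats. All hypertensive arrays were lower, hypertensive replicate 4 lying closest to the controls. The change was -0.41 ± 0.13 (limma adjusted p = 0.114, 95% interval -0.71 to -0.12). It did not pass, except with normexp background correction (-0.45, adjusted p = 0.035). In all, levels did not overlap for 4 of the 6 tested replication genes, 3 of them lower (5.78% of all tests) and 1 higher (7.84% of all tests). These 6 genes are a subset of the 30, and nothing particular to them was tested.

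Neither tested gene of nucleotide supply passed. Rrm2, the regulated subunit of ribonucleotide reductase, was at -0.15, -0.09, -0.26 and -0.66 in the controls and at 0.11, -0.10, -0.16 and 0.46 in the hypertensive rats. The groups overlapped, with hypertensive replicate 4 highest and control replicate 4 lowest. Its difference was 0.37 ± 0.17 (limma adjusted p = 0.266). Tyms, thymidylate synthase, differed by -0.18 ± 0.09 (limma adjusted p = 0.319).

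**Figure D2:**
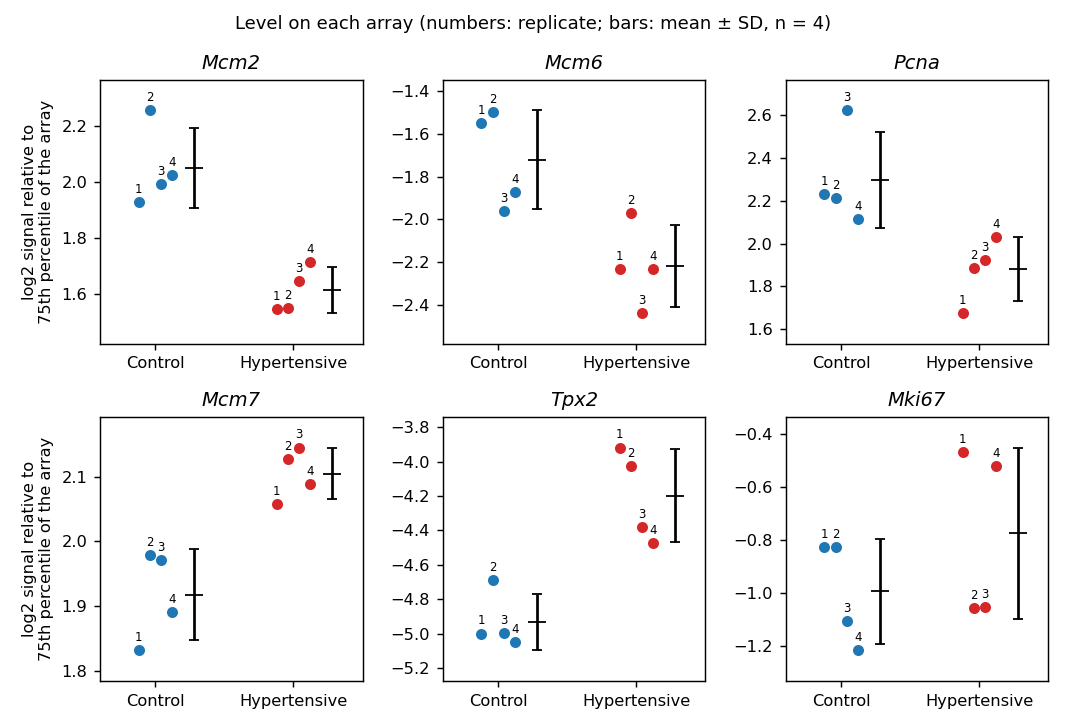
Each point is 1 array, numbered by replicate, with its log2 signal relative to the array's 75th percentile on the vertical axis; the bars give mean ± SD (n = 4). Mcm2, Mcm6 and Pcna lie lower and Mcm7 and Tpx2 higher on every hypertensive array, while Mki67 overlaps between the groups.

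Tpx2 activates Aurora A kinase and nucleates microtubules in the spindle. It was at -5.00, -4.69, -4.99 and -5.05 in the controls and at -3.92, -4.02, -4.38 and -4.47 in the hypertensive rats. Every hypertensive array was above every control. Tpx2 rose by 0.74 ± 0.15 (1.66-fold, limma adjusted p = 0.026, 95% interval 0.40 to 1.07), on the only probe named for it. Its mean level (-4.57) was the lowest of the 30 tested members and near the detection limit. The second Mcm3 probe, with group means of -5.00 and -4.69, was above background on only 3 arrays of each group. With normexp background correction the rise was 0.30 (adjusted p = 0.044), and without a filter on dim signal the call was lost (adjusted p = 0.067). The call was lost without control replicate 1, 3 or 4 or hypertensive replicate 1 or 2 (adjusted p of 0.080, 0.073, 0.068, 0.054 and 0.073).

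None of the other 13 tested genes of mitosis passed. Of all 14, 13 lay above 0 and 1 below it, against 42.3% of all tests below 0. With arrays centred on their median, 9 lay above 0 and 5 below it, while the median over all tests moved from 0.04 to -0.04. That centring shifts every change by the same constant, so it does not test the balance against all tests. The 7 tested cyclins, kinases and checkpoint genes of mitosis lay between -0.22 (Birc5, survivin) and 0.15 (Plk1, a kinase of mitotic entry). Cdk1, the kinase that starts mitosis, was at -1.01, -0.95, -1.34 and -1.56 in the controls and at -0.95, -1.25, -1.42 and -0.84 in the hypertensive rats. The ranges of the groups largely overlapped, and the difference was 0.10 ± 0.18, with a 95% interval of -0.30 to 0.50. Its partner cyclins Ccnb1 and Ccnb2 differed by 0.14 ± 0.10 and 0.08 ± 0.17, and a second Ccnb2 probe by -0.16 ± 0.29. Aurka differed by 0.05 ± 0.09 (95% interval -0.15 to 0.24), next to its activator Tpx2. Bub1, a spindle checkpoint kinase, was at -0.69, -0.26, -0.71 and -0.74 in the controls and at -0.61, -0.52, -0.46 and -0.49 in the hypertensive rats. Its difference of 0.08 ± 0.12 left the groups overlapping because of control replicate 2.

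Cdc20, the activator of the anaphase-promoting complex, was at -1.13, -1.39, -1.21 and -1.14 in the controls and at -0.98, -1.23, -1.23 and -0.94 in the hypertensive rats. Hypertensive replicates 1 and 4 stood above all controls and the other 2 did not, for a difference of 0.12 ± 0.11. Ube2c, the ubiquitin-conjugating enzyme of that complex, differed by 0.11 ± 0.22, and by 0.31 ± 0.20 on a second probe.

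Mki67 encodes the Ki-67 protein, the usual marker of dividing cells. On its brightest probe it was at -0.83, -0.83, -1.11 and -1.22 in the controls and at -0.47, -1.06, -1.05 and -0.52 in the hypertensive rats. Hypertensive replicates 1 and 4 were above every control, and replicates 2 and 3 lay within the control range. The difference was 0.22 ± 0.17 (limma adjusted p = 0.512, 95% interval -0.17 to 0.61). The other 3 kept probes gave 0.15 ± 0.20, 0.22 ± 0.20 and, on a probe above background on 3 control and 2 hypertensive arrays, -0.22 ± 0.43. Kif11 and Kif20a, kinesins of spindle assembly and cytokinesis, differed by 0.48 ± 0.28 and 0.05 ± 0.23, and Nusap1, a spindle microtubule protein, by 0.26 ± 0.22. The 95% interval of Kif11 ran from -0.16 to 1.11, and a change within it is not excluded.

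Members of mitosis followed a shared order among arrays of the same group. For 9 of 14, hypertensive replicates 1 and 4 were both above replicates 2 and 3, an order shown by 13.8% of all tests. These were Ccnb2, Cdk1, Plk1, Aurka, Cdc20, Ube2c, Mki67, Kif20a and Nusap1. Outside mitosis, 3 of 16 members had this order, namely Ccna2, Cdkn1a and Rrm2. Control replicate 4 was the lowest control for 10 of the 14 (23.5% of all tests) and hypertensive replicate 3 the lowest hypertensive array for 10 (19.5% of all tests). The median deviation of the 14 genes from their own means was 0.21 and 0.27 in hypertensive replicates 1 and 4, 0.03 and -0.18 in replicates 2 and 3, and 0.08, 0.08, -0.16 and -0.25 in control replicates 1 to 4. The spread within a group was wider than the difference between groups for 13 of the 14, as it was for 92.2% of all tests. Smooth muscle markers had another order: hypertensive replicate 3 was the highest of all arrays for 9 of 9 markers (mean deviation 0.48), and control replicate 4 had the highest mean deviation of the controls (0.14). Mean deviations in hypertensive replicates 1 to 4 were -0.09, -0.29, -0.25 and 0.18 for macrophage markers. For fibroblast markers they were 0.14, -0.25, -0.36 and -0.13. By mean deviation, replicates 1 and 4 thus stood above 2 and 3 there too, as they did for white adipocyte, lymphocyte and nerve markers. The margin was small for lymphocyte markers (-0.404 in replicate 1, -0.405 in replicate 2). By median deviation, as given for the mitosis genes, macrophage, white adipocyte and erythroid markers had this order. Fibroblast, lymphocyte and nerve markers did not have it by the median, nor erythroid markers by the mean. Endothelial and mast cell markers had it by neither. The part of muscle or other cell content in the order of the mitosis genes was not tested. This order was noticed in the values and is a description.

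**Figure D3:**
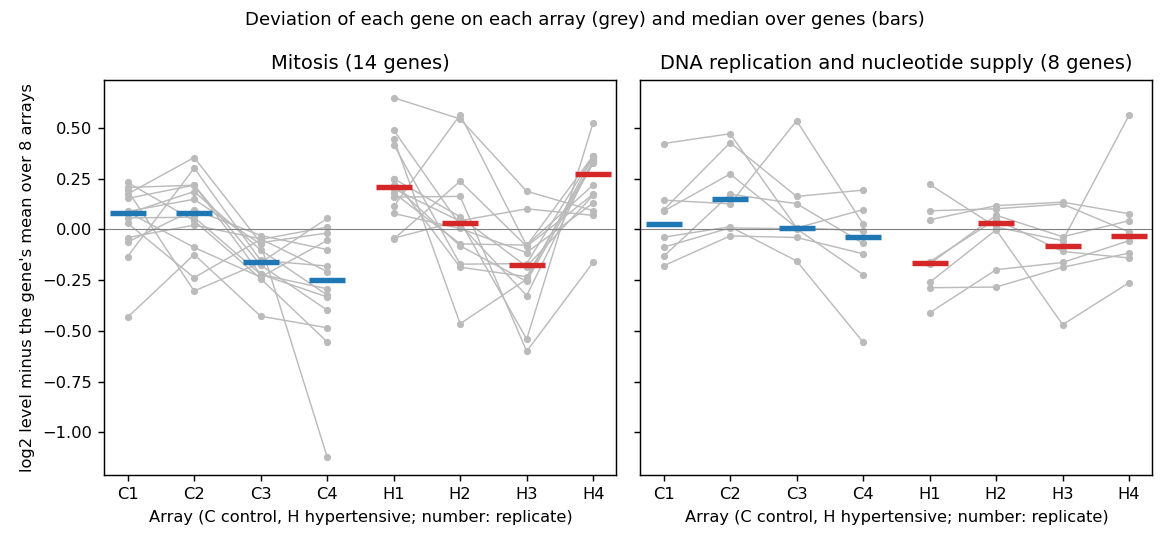
Grey points joined by lines show, for each gene, its log2 level on an array minus its mean over the 8 arrays, for 14 genes of mitosis (left) and 8 of replication and nucleotide supply (right); coloured bars are medians over genes. In mitosis the medians range from -0.25 to 0.08 in the controls and from -0.18 to 0.27 in the hypertensive rats.

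Cyclins of G1 and S phase gave no call. Ccnd2, a cyclin D that couples growth signals to the cycle, was at 2.35, 2.07, 2.20 and 2.65 in the controls and at 2.40, 2.19, 2.37 and 2.21 in the hypertensive rats. The hypertensive levels all lay inside the control range, and the difference was -0.03 ± 0.13 (95% interval -0.32 to 0.27). Ccnd1 differed by -0.10 ± 0.10, and by -0.04 ± 0.13 on a second probe. Neither cyclin E gene passed, with Ccne1 at -0.34 ± 0.15 and Ccne2 at 0.26 ± 0.16 (limma adjusted p = 0.234 and 0.395). Ccna2, the cyclin of S phase and G2, differed by 0.32 ± 0.17 and Cdk2, the partner of cyclins E and A, by -0.07 ± 0.12.

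Inhibitors of the cyclin-dependent kinases did not pass either. Cdkn1b, which encodes p27 and holds resting cells out of the cycle, was at 2.69, 2.64, 2.62 and 2.62 in the controls and at 2.78, 2.99, 2.87 and 2.38 in the hypertensive rats. Hypertensive replicates 1 to 3 were above all controls and replicate 4 was below them, for a difference of 0.11 ± 0.13, and of -0.05 ± 0.10 on the second probe. Cdkn1a, the p53 target that encodes p21, was at -0.15, -1.08, -0.10 and -0.55 in the controls and at -0.14, -1.61, -0.95 and -0.06 in the hypertensive rats. It spread widely within both groups, with replicate 2 lowest in each, and differed by -0.22 ± 0.36.

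Beyond the members, 4 further lists of cell cycle genes held 157 genes, of which 117 were tested. None rose and 4 fell, against 2.61% and 1.91% of all tests. Their median change was 0.03, against 0.04 over all tests. Among 35 genes of origin licensing and the replisome, Cdc7 fell and 34 did not pass (median 0.03). Cdc7, the kinase that fires licensed origins by phosphorylating the MCM ring, was at -0.34, -0.31, -0.29 and -0.50 in the controls and at -0.70, -0.94, -0.91 and -0.73 in the hypertensive rats. The groups were apart, and the change was -0.46 ± 0.09 (limma adjusted p = 0.025). It was lost without control replicate 1, 2 or 3 or hypertensive replicate 2 or 3, with adjusted p of at most 0.076.

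Among 34 genes of the spindle, kinetochore and cytokinesis, Dlgap5 fell and 33 did not pass (median 0.10). Of the 34, 24 lay above 0 and 10 below it, against 42.3% of all tests below 0. With median centring 19 lay above 0 and 15 below it, the median over all tests then being -0.04. Dlgap5, which stabilises kinetochore microtubules, was at -0.43, -0.55, -0.64 and -0.68 in the controls and at -0.84, -1.05, -1.26 and -1.38 in the hypertensive rats. All hypertensive arrays were lower, for a change of -0.55 ± 0.13 (limma adjusted p = 0.044), a call that held without hypertensive replicate 1 and was lost with each of the other 7 arrays left out (adjusted p up to 0.122). Cdc7 and Dlgap5 also lost their calls without the filter on dim signal (adjusted p = 0.081 and 0.109). Of 24 Rb, E2F and DREAM regulators none passed the limma threshold, and 3 had an unadjusted p under 0.05, against 20.3% of all tests. Of these 3, Myc and Ccnd3 were lower and E2f7, an E2F repressor named after its value was seen, was higher (0.47 ± 0.19, limma adjusted p = 0.214). Myc, a transcription factor of growth, differed by -0.57 ± 0.16 and Ccnd3, another cyclin D, by -0.26 ± 0.09 (limma adjusted p = 0.085 and 0.134), and the groups did not overlap for either (5.78% of all tests).

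Among these 117 genes the 2 largest falls were those of Btg2 and Gadd45g. Of 24 other CDK inhibitors and p53 response genes, 2 fell, against 1.91% of all tests, and 22 did not pass (median -0.03). Of related genes, Gadd45a (-0.43 ± 0.19) and Gadd45b (-0.31 ± 0.19) lay below 0 like Gadd45g, and Btg1 was at 0.06 ± 0.12. None of these related genes passed. Btg2, an antiproliferative gene that also answers quickly to stimuli, was at 5.37, 4.65, 5.91 and 4.73 in the controls and at 3.79, 3.69, 2.96 and 3.34 in the hypertensive rats. It fell by 1.72 on the log2 scale (SE 0.30, 3.29-fold, limma adjusted p = 0.014), a call lost without control replicate 1 (adjusted p = 0.0502). Gadd45g, a stress-induced gene whose product binds cyclin B and Cdk1, was at 3.41, 2.66, 3.33 and 2.67 in the controls and at 2.02, 1.70, 1.36 and 1.20 in the hypertensive rats. It fell by 1.45 on the log2 scale (SE 0.24, 2.72-fold, limma adjusted p = 0.011) and kept its call with each array left out in turn. Both genes were apart between the groups on all arrays. Levels did not overlap for 3 of the 24 genes of this list, all 3 lower, against 5.78% of all tests. Beside Btg2 and Gadd45g this was Plk3, named after its value was seen. It differed by -0.96 ± 0.25 (limma adjusted p = 0.067) and did not pass.

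**Figure D4:**
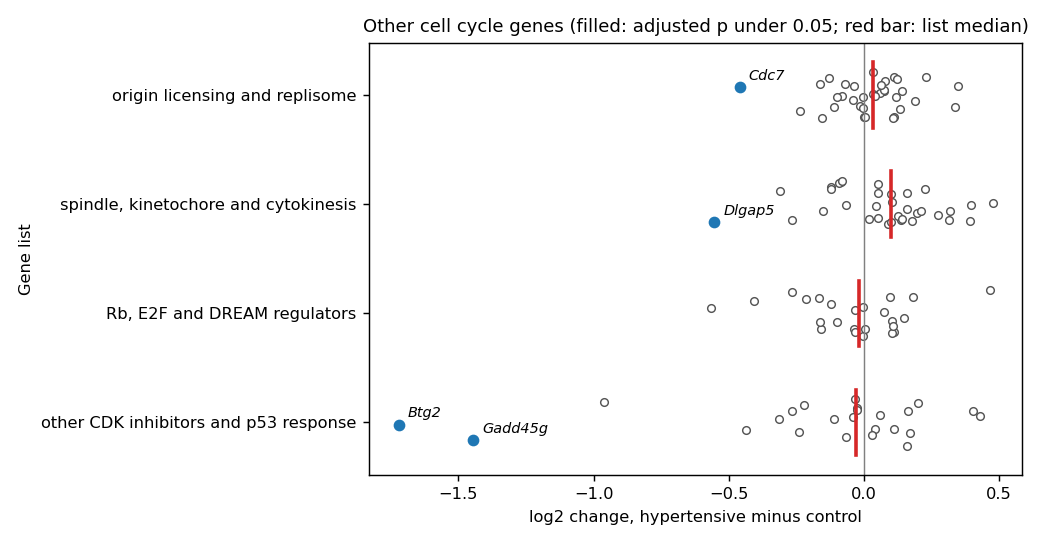
The log2 change (hypertensive minus control) of 117 further cell cycle genes is plotted by list, with filled points for genes past the threshold and a red bar at each list's median. Btg2 (-1.72), Gadd45g (-1.45), Dlgap5 (-0.55) and Cdc7 (-0.46) passed, and the list medians lie between -0.03 and 0.10.

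Vessel wall markers were present on the arrays, with 9 of 9 smooth muscle and 8 of 8 named endothelial markers tested and none past the threshold. Blood and fat cell markers differed between arrays. For comparison with the counts below, 2.61% of all tests were called higher and 1.91% lower, and 42.3% lay below 0. None of 10 tested lymphocyte markers passed, 9 of them being below 0, and their summed signal (relative to the 75th percentile) was 6.24 to 8.84 in the controls and 4.01 to 6.70 in the hypertensive rats. Of 10 macrophage markers 1 fell (Mrc1) and 8 were below 0, with sums of 133 to 169 and 153 to 216. The brightest of them, Lyz2 (mean level 6.63), weighs most in these sums. It differed by 0.53 ± 0.14 (limma adjusted p = 0.080), so the sums and the signs of most markers go opposite ways. None of 9 mast cell markers passed, with 8 above 0 and sums of 5.52 to 8.78 and 8.70 to 16.1. None of 8 white adipocyte markers passed (Plin1 was below the filter), with sums of 18.4 to 31.8 and 15.8 to 80.8, hypertensive replicate 4 being highest for 7 of the 8. All 7 tested fibroblast markers lay below 0 and none passed. Of 7 Schwann cell and nerve markers 1 rose (Nefh), and of 6 erythroid markers 1 rose (Epb42) and 1 fell (Hba-a3). Nefh was well above background on 0 control and 4 hypertensive arrays, and Hba-a3 on 4 control and 0 hypertensive arrays. Each of these 2 thus entered the test through 1 group alone. The part of these cells in the levels of Mcm2, Tpx2 and the mitosis genes was not tested. In such bulk samples fewer cells of a type and less RNA per cell cannot be told apart. No spot of these arrays was saturated, and 58.7% to 64.1% of probes per array were well above background. Over all tests 641 rose and 470 fell, and with quantile normalization the split was 529 and 586, with median centring 422 and 652. All 8 arrays came from 1 slide and 1 scan, and the row of the slide cannot be told apart from the group.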

How the data were processed

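Total RNA of vessels was labelled with Cy3 and hybridised to 1-colour Agilent rat arrays, per the labels' protocols. The deposited scanner output gives, per spot, an intensity already corrected for background by Agilent Feature Extraction, version 10.7.1.1 per the file headers and 12.1.1.1 per the submitters' processing notes. The deposited value table holds a linear ratio, which equals the processed intensity over a constant close to each array's 75th percentile, with 0 probes above 1 off by over 5%. Its column medians were 0.086 to 0.101. It was not centred on genes, holds no direction, and served as an alternative.

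Spots marked as outliers were dropped if the probe had a further spot, the 58717 gene spots were averaged to 45598 probes on the log2 scale, and the 75th percentile of the array was subtracted. Probes well above background on at least 3 of 4 arrays of a group were kept (27822), a probe counting as such where at least 50% of its spots did. Symbols came from accessions through RefSeq (GRCr8), which named 21222 probes (46.5%). The brightest kept probe stood for a gene. Second probes were tested in a fit over all kept probes. limma 3.58.1 in R 4.3.3 (lmFit, eBayes, group as the only term, 8 arrays) gave every p of a gene, adjusted by Benjamini-Hochberg over all tests, at a threshold of 0.05. The fit was also run on simulated arrays with known changes. Their noise was independent between genes and arrays, so that run does not show how the fit behaves with technical replicates or a shared array order.

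The members and lists were chosen with earlier results of these data known. Named in full are members past the threshold, members whose groups do not overlap and the member with the highest level of each role group, and of each further list the genes past the threshold, else the 2 with the smallest p. Cdk1, Ccnd3, Myc, Cdkn1a and the array order were described beside these, Cdk1, Cdkn1a and the order being chosen after their values were seen. Alternatives were another background correction, scaling, detection filter, probe rule, value source, array weights, a replicate block and leaving out each array. The files hold no mean spot signal, so normexp correction (offset 50) used the median signal, chosen after the files were seen. Motif letters were searched in RefSeq promoter windows.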

Additional observations from a re-analysis of the deposited data

Results flagged for a closer look

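In 2 of 60 groups of 4 arrays, 1 array lay far from the other 3 by Dixon's criterion, and chance flags about 1 in 20 groups. Bub1 was at -0.26 in control replicate 2, against -0.74 to -0.69 in the other controls. Tpx2 was at -4.69 in control replicate 2, against -5.05 to -4.99 in the other controls, and without that array its rise kept its call.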

How the results depend on the processing

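Of 510 values of the 30 members under 17 alternatives, 494 kept their side of the threshold, 15 lost a call, 1 gained one and 0 calls turned sign. Most of these values belong to the 28 members without a call in the main fit, which could hardly lose one. Of the 2 called members, Mcm2 kept its call in 8 of the 17 alternatives and Tpx2 in 11. The median change of the members stayed within 1 SD of the control arrays (0.09). Without a detection filter, which raises the number of tests to 41048, 641 tests passed in all, with 0 members higher, 0 lower (Mcm2 adjusted p = 0.105, Tpx2 0.067) and 2 of the further genes. With normexp, 1853 passed and 2 members were lower (Mcm2, Pcna). Leaving out 1 array gave 629 to 1473 calls in all, 0 to 1 members higher, 0 to 1 lower and 1 to 4 further genes, with fewer arrays in the fit; the total moved by over 1.5 times without control replicates 1, 2 or 3 (629, 725 and 695) or hypertensive replicate 2 (688). Whether replicate numbers pair the samples is not settled by these values. Deviations of same-numbered arrays correlated at 0.21, 0.12, -0.0036 and -0.15 (replicates 1 to 4). Control replicates 1 and 2 correlated best with their own number, and control replicates 3 and 4 with other numbers. With the replicate block 675 passed in all, with 1 member higher, 0 lower (Mcm2 adjusted p = 0.099) and 2 further genes (Gadd45g and Dlgap5), while Cdc7 (adjusted p = 0.095) and Btg2 (0.066) lost their calls. With 4 arrays per group, their number limits the precision.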
